A study of Mus musculus with 18 samples.

Results

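Primary microglia that carried 1 mutant allele each of Tbk1 and Tak1 were compared with wild-type (WT) microglia across all expressed genes. The comparison used 6 of the 18 libraries of the series, 3 labelled Tbk1+/-;Tak1ΔM/+ (called double heterozygous here) and 3 labelled WT, chosen by genotype label alone. It covered 13447 genes that passed a filter on low counts. Both groups were C57BL/6 mice, and their microglia were taken from forebrains at postnatal day 2, grown in mixed flasks for 7 days, given new medium, grown for 7 more days and then shaken off. The double heterozygous cells had 1 Tbk1 allele labelled as lost and 1 Tak1 allele labelled ΔM, and their Ripk1 alleles carried no label of a change. The labels used here do not say which promoter or Cre made the ΔM allele, or whether separate pups or flasks stood behind the 3 libraries of 1 genotype, so p-values measure the spread between these libraries, which may be technical. The other 4 genotypes, with 3 libraries each, entered the fit to share its estimate of the spread.

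Microglia are the resident macrophages of the brain. TBK1 and TAK1 (gene symbol Map3k7) are protein kinases that act downstream of the tumor necrosis factor receptor and of innate sensors. Both phosphorylate RIPK1 and restrain its kinase activity, and TAK1 also activates the NF-kB and MAP kinase pathways, while TBK1 activates the interferon regulatory factor IRF3. Genes of the interferon response and of the cell cycle are counted below but not described, and the account turns to the other genes that differed.

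Total counts were 17077871, 18134681 and 16275849 in WT replicates 1, 2 and 3, and 17020263, 8016559 and 18020929 in double heterozygous replicates 1, 2 and 3. Expression is given as CPM, counts per 1000000 counts of a library whose total was scaled by TMM, a trimmed mean of log ratios between libraries. Pearson correlations of log CPM across genes were 0.94 to 0.954 between WT libraries, 0.96 to 0.964 between double heterozygous libraries, and 0.929 to 0.94 between the genotypes. Mitochondrially encoded protein genes took 1.42%, 1.62% and 0.671% of the counts in the WT libraries and 0.512%, 0.508% and 0.367% in the double heterozygous libraries, so that share moved with genotype. WT replicate 3 stood apart from the other WT libraries in this share and in the nuclear RNA Neat1, which had 28.2, 22.8 and 211 CPM in WT and 310, 302 and 335 in double heterozygous libraries (log2 fold change 1.86, adjusted p = 0.254; chosen after its values were seen). The groups did not overlap for Neat1, and WT replicate 3 lay nearest to the double heterozygous libraries. The 4 Y-linked genes summed to 116, 53.6 and 0 CPM in WT and to between 68.1 and 89.9 in double heterozygous libraries, and Xist had 66.3, 109 and 270 CPM in WT and 68.2 to 87.5 in double heterozygous libraries. WT replicate 3 was thus the 1 library of the 6 with no Y-linked counts. With the Y-linked level as a covariate, 479 higher and 677 lower genes were called. The summed CPM of 14 microglial markers was 6626 to 6891 in WT and 6151 to 6816 in double heterozygous libraries. None of 10 astrocyte, 11 oligodendrocyte, 10 neuronal, 11 stromal or vascular and 12 border macrophage markers tested was called. The stromal markers summed to 89.9, 45.2 and 22.3 CPM in WT and to between 16.3 and 21.7 in double heterozygous libraries. The astrocyte markers summed to 44.7 to 61.9 and 28.3 to 37.3. The oligodendrocyte markers went the other way, with sums of 139 to 153 CPM in WT and 168 to 172 in double heterozygous libraries. Among these 11 markers, 6 log2 fold changes were positive and 5 negative. Olig2 had 0.19 to 1.68 and 4.28 to 6.02 CPM, and Pdgfra 0 to 2.53 and 4.93 to 9.81 (both chosen after their values were seen). The neuronal and border macrophage sums overlapped. Of 16 markers of other blood cells 3 were tested. Their sum was 4.47 to 6.27 CPM in WT and 8.9 to 11.6 in double heterozygous libraries. S100a8 was called lower (2.09 to 3.77 CPM in WT, 0.299 to 1.13 in double heterozygous libraries). That call held only without double heterozygous replicate 2 (adjusted p = 0.0319). Cd4, not called, went the other way (0.825 to 4.05 and 7.78 to 10.9 CPM, log2 fold change 2.22, adjusted p = 0.0961). Cd79b had at most 0.597 CPM. The part of these markers, and of the mitochondrial share beyond the fits given below, in the results was not tested. In bulk RNA, fewer cells of a type and less RNA per cell cannot be told apart.

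The targeted genes were read first. Tbk1 (chromosome 10, 121546455 to 121586787 in GRCm38) had 106, 104 and 149 CPM in WT and 55.1, 56.4 and 66 in double heterozygous libraries. The groups did not overlap, and Tbk1 fell by 1.01 on the log2 scale (SE 0.25, adjusted p = 0.0232, edgeR quasi-likelihood test with Benjamini-Hochberg adjustment, as for every adjusted p of a gene here). Leaving out WT replicate 3 ended that call (adjusted p = 0.0872), as did leaving out double heterozygous replicate 1, 2 or 3 (0.0892, 0.0771 and 0.0607). Map3k7 (chromosome 4, 31964097 to 32023467) had 11, 10.4 and 19.2 CPM in WT and 15.8, 11.4 and 6.57 in double heterozygous libraries. Its groups overlapped, with a log2 fold change of -0.27 (SE 0.32, adjusted p = 0.714), and the sign turned without WT replicate 3 (0.077) and without double heterozygous replicate 3 (0.014). A count over the whole gene does not check an allele that lacks only part of it. Ripk1 (chromosome 13, 34002363 to 34037147) had 19.1, 17 and 23.8 CPM in WT and 49, 55.8 and 71 in double heterozygous libraries. It rose by a log2 fold change of 1.55 (SE 0.44, adjusted p = 0.0433), and the call ended in each of the 6 fits without 1 library (adjusted p from 0.0698 to 0.155).

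Of the 13447 genes tested, 816 (6.07%) were called at an adjusted p under 0.05. The called genes were 291 higher in double heterozygous cells (2.16%) and 525 lower (3.9%), so 64.3% of the calls were lower. The interferon response list held 50 of the higher genes and the cell cycle list 74 of the lower genes. The remaining 241 higher and 451 lower genes, 82.8% and 85.9% of the calls, lay outside both lists. Leaving out WT replicate 1, 2 or 3 or double heterozygous replicate 1, 2 or 3 gave 100, 88, 205, 123, 128 and 85 higher genes and 335, 252, 423, 269, 291 and 199 lower genes, in that order. In all, 54 higher (0.402% of genes tested) and 146 lower genes (1.09%) were called in the full fit and in all 6 of these fits, 200 together (1.49%), and 27 and 126 of them lay outside both lists. The 3 WT and 3 double heterozygous values did not overlap for 29.6% of all genes tested, and 810 of the called genes (6.02% of genes tested) had no overlap. The genes described first below come from that group, so their calls did not rest on a single library. With the mitochondrial share as a covariate (the covariate fit), 70 higher and 146 lower genes were called. Another fit used the 8 libraries of the series with a share under 0.7% (the low-share fit). WT replicate 3 was the lone WT library in it. The calls of that fit were in part other genes than those of the full fit. Counts from these fits stand beside the gene lists below.

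**Figure D1:**
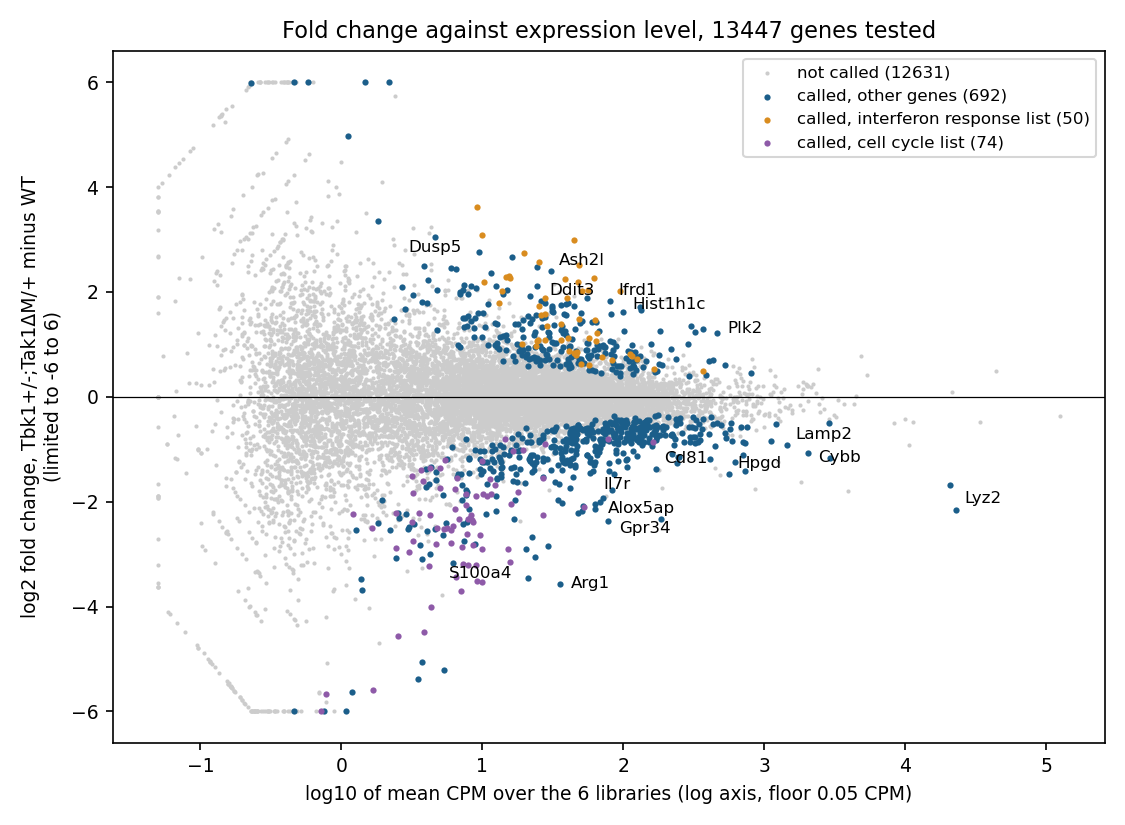
Log2 fold change (double heterozygous minus WT, vertical axis, limited to -6 to 6) against the log10 of mean CPM over the 6 libraries (horizontal axis), 1 point per gene tested. Called genes outside both set-aside lists are blue (692), those on the interferon response list orange (50) and those on the cell cycle list purple (74); Lyz2 lies farthest to the right among the named genes.

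Lyz2, which encodes lysozyme, the bacterial cell wall hydrolase of macrophages, was the gene with the largest fall in CPM among the leading genes. Lyz2 (chromosome 10, 117277331 to 117282321) had 39358, 35037 and 37051 CPM in WT and 8000, 8114 and 8923 in double heterozygous libraries. The groups were far apart, and Lyz2 fell by 2.15 on the log2 scale (SE 0.20, adjusted p = 3.02e-05), a 4.45-fold difference. Its near-identical neighbour Lyz1 had 48.2, 51.8 and 64.7 CPM in WT and 13 to 14.6 in double heterozygous libraries (log2 fold change -1.97, adjusted p = 0.00824). Reads of these copies may have been split by the counting, so the value of Lyz1 is uncertain. The Lyz2 locus is a common site for Cre insertion in myeloid cells, and no source used here says whether these mice carry one. Lyz2 averaged 18291 CPM in Tak1ΔM/+ libraries and 40526 in Tbk1+/-;Tak1ΔM/+;Ripk1D138N/+ libraries, which both carry the ΔM label. Lyz2 lies 4.26 Mb from Tbk1 on the same chromosome. Within 5 Mb of Tbk1, 2 of 41 tested genes were called (4.88%), namely Lyz1 and Lyz2. Within 5 Mb of Map3k7, 0 of 22 tested genes were called. Within 5 Mb of Lyz2, 3 of 42 were called (7.14%), namely Lyz1, Tbk1 and Tbc1d15, all lower, beside 6.07% over all genes.

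The 14 leading genes that fell, by the largest fold change, held enzymes, calcium-binding proteins and surface receptors of myeloid cells. Arg1, which encodes arginase and takes arginine away from nitric oxide synthesis, had 59.6, 81.4 and 56 CPM in WT and 5.57, 4.51 and 6.27 in double heterozygous libraries. No library of 1 group came near the other, and Arg1 fell by 3.57 on the log2 scale (SE 0.60, adjusted p = 0.00273), an 11.9-fold difference. In limma-voom the call of Arg1 ended (adjusted p = 0.0765). Arginine and polyamine metabolism had 19 tested genes, of which 2 rose and 2 fell (21.1% called, beside 6.07% over all genes). The other lower gene, Sat1, which acetylates polyamines for export, had 914, 865 and 1058 CPM in WT and 499, 499 and 549 in double heterozygous libraries (log2 fold change -0.87, SE 0.17, adjusted p = 0.00572). The higher genes were Odc1, the first enzyme of polyamine synthesis (3.13 to 5.42 CPM in WT, 9.97 to 12 in double heterozygous), and Srm, spermidine synthase (16.6 to 18 and 27.3 to 31.2). In these libraries the 2 synthesis enzymes were higher and the catabolic enzyme was lower. The calls of Odc1 and Srm ended in each of the 6 fits without 1 library (adjusted p from 0.0513 to 0.131 and from 0.0801 to 0.153), while Arg1 and Sat1 were called in all 6. In the covariate fit the list had 0 higher and 2 lower calls.

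Genes for the synthesis and breakdown of leukotrienes and prostaglandins were among the lower genes. Alox5 encodes 5-lipoxygenase, the first enzyme of leukotriene synthesis, and Alox5ap the membrane protein that presents arachidonic acid to it. Alox5ap had 127, 109 and 72.7 CPM in WT and 21.7, 19.2 and 29 in double heterozygous libraries. All 3 double heterozygous values were below the lowest WT value, and Alox5ap fell by 2.14 on the log2 scale (SE 0.34, adjusted p = 0.00171). Alox5 had 10.6, 17.6 and 5.63 CPM in WT and 2.28, 0.676 and 0.647 in double heterozygous libraries (log2 fold change -3.17, SE 0.62, adjusted p = 0.00683). Hpgd, the dehydrogenase that inactivates prostaglandins, had 837, 770 and 886 CPM in WT and 312, 342 and 245 in double heterozygous libraries (log2 fold change -1.47, SE 0.27, adjusted p = 0.00458). The list had 25 tested genes, of which 4 fell and 1, Ptges2, rose (20% called, beside 6.07% over all genes). Its median log2 fold change was -0.44, beside 0.0038 over all genes tested. The median was -0.20 in the covariate fit, with 2 lower and 0 higher calls, and -0.18 in the low-share fit, with 5 and 2. The call of Alox5 ended in the covariate fit (adjusted p = 0.0725), the low-share fit (0.0932) and limma-voom (0.0591). The fourth lower gene, Pla2g4a, the cytosolic phospholipase that releases arachidonic acid, lost its call in each of the 6 fits without 1 library (adjusted p up to 0.146). Ptges2 kept its call only without WT replicate 1 (adjusted p = 0.0416; 0.0784 to 0.176 in the other 5 fits). Among the receptors, Cysltr1, which binds cysteinyl leukotrienes, had 49.1, 62.2 and 64.9 CPM in WT and 27.5, 29.3 and 16.4 in double heterozygous libraries (log2 fold change -1.27, adjusted p = 0.0123). Its call ended without double heterozygous replicate 3 (adjusted p = 0.0732) and in the covariate fit (0.0904).

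**Figure D2:**
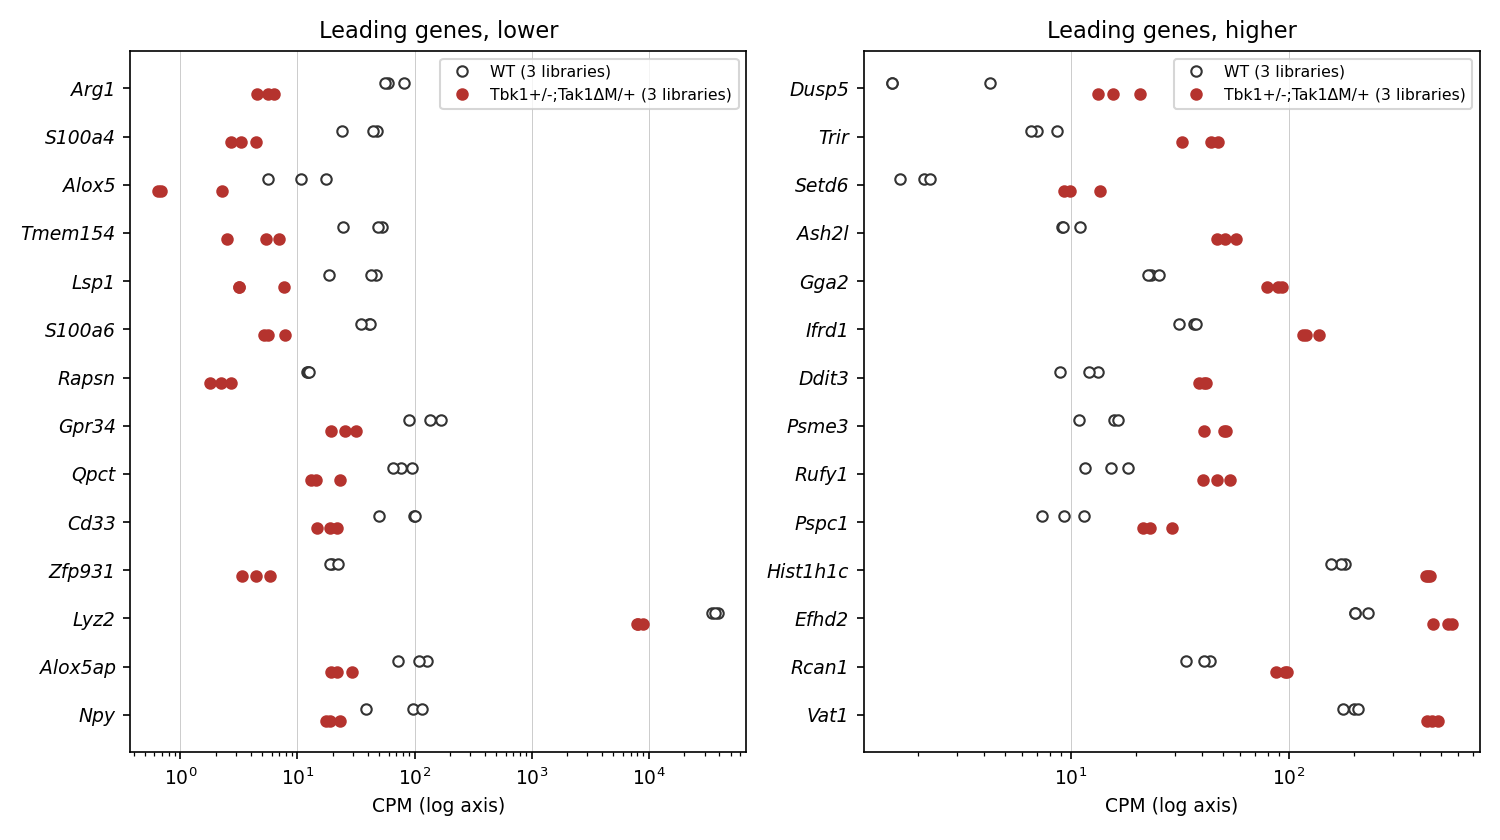
CPM (log axis) of the 14 lower and 14 higher genes with the largest fold change among those called in all 6 fits without 1 library; open circles are the 3 WT libraries and red circles the 3 double heterozygous libraries. The groups do not overlap for any of the 28 genes, which was part of how they were chosen.

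S100a4 and S100a6, which encode small calcium-binding proteins of myeloid and other cells, were among the 14 leading lower genes. S100a4 had 48.2, 44 and 24.1 CPM in WT and 3.29, 2.71 and 4.38 in double heterozygous libraries, and fell by 3.46 on the log2 scale (SE 0.49, adjusted p = 0.00123). S100a6 had 40.6, 41.2 and 34.9 CPM in WT and 5.14, 7.89 and 5.62 in double heterozygous libraries, and fell by 2.67 (SE 0.34, adjusted p = 0.000479). For both genes the highest double heterozygous library was far below the lowest WT library. Of 15 tested S100 and annexin genes, 5 fell and 0 rose (33.3% called). Without WT replicate 1, 2 or 3 or double heterozygous replicate 1, 2 or 3, the lower calls numbered 4, 2, 4, 3, 3 and 3. The median over these 15 genes was -0.33, against -0.09 with 2 lower calls in the covariate fit and -0.16 with 4 in the low-share fit. Of the actin regulators, 5 of 63 fell and 2 rose (11.1% called, beside 6.07% over all genes). Their median log2 fold change was -0.11, and 2 lower and 0 higher calls were made in the covariate fit. Lsp1, an F-actin binding protein of leukocytes, had 46.5, 42.5 and 18.6 CPM in WT and 3.18, 3.16 and 7.62 in double heterozygous libraries (log2 fold change -2.91, SE 0.52, adjusted p = 0.00408). Pls3, which bundles actin, had 84.8, 95.9 and 84.8 CPM in WT and 28.4 to 37.9 in double heterozygous libraries (log2 fold change -1.42, adjusted p = 0.00337). The higher genes were Rhob and Evl, and their calls ended in 6 and 5 of the 6 fits (adjusted p up to 0.107 and 0.149), Evl keeping it without WT replicate 3.

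Several receptors and secreted proteins of microglia were among the leading lower genes. Gpr34, a receptor for lysophosphatidylserine that marks microglia, had 89.8, 136 and 167 CPM in WT and 31.7, 25.5 and 19.4 in double heterozygous libraries. The lowest WT value was above every double heterozygous value, and Gpr34 fell by 2.36 on the log2 scale (SE 0.27, adjusted p = 0.000111). Rnase4, a secreted ribonuclease on the same list of homeostatic microglia genes, had 137.6, 120 and 121 CPM in WT and 49.6, 40.7 and 45.1 in double heterozygous libraries (log2 fold change -1.48, SE 0.17, adjusted p = 0.000111). Of 42 tested homeostatic genes 7 fell and 2, Jun and Rhob, rose (21.4% called, beside 6.07% over all genes), with a median of -0.24. The lower calls on this list numbered 4 or 5 in each of the 6 fits without 1 library, and the higher calls 0 or 1. The covariate fit called 3 lower and 0 higher, and the low-share fit 12 and 2. Of 45 tested genes raised in disease-associated microglia, 6 fell and 0 rose (13.3% called), with a median of -0.26. The direction of that median depended on the fit: it was -0.10 in the covariate fit, with 4 lower and 0 higher calls, and turned to 0.06 in the low-share fit, with 9 lower and 5 higher calls. Besides Lyz2 the 6 included Ch25h, which makes 25-hydroxycholesterol (12 to 23.8 CPM in WT, 3.19 to 8.23 in double heterozygous; log2 fold change -1.89, adjusted p = 0.00274), and Cd52 (114 to 151 and 61.9 to 67.6 CPM; log2 fold change -1.08, adjusted p = 0.00605).

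Some inhibitory and activating immune receptors were called lower. Cd33, a sialic acid binding receptor with inhibitory motifs, had 99.3, 100 and 50 CPM in WT and 21.7, 18.8 and 14.7 in double heterozygous libraries (log2 fold change -2.18, SE 0.38, adjusted p = 0.00346). Cd200r4, an activating member of the CD200 receptor family, had 160, 154 and 74.9 CPM in WT and 35.6 to 41.4 in double heterozygous libraries (log2 fold change -1.79, adjusted p = 0.00299). WT replicate 3 had the lowest WT value of both genes and still lay above all double heterozygous values. Of 38 tested inhibitory and paired receptors 5 fell and 0 rose (13.2% called, beside 6.07% over all genes). Without WT replicate 1, 2 or 3 or double heterozygous replicate 1, 2 or 3, the lower calls numbered 3, 3, 7, 3, 3 and 3. The covariate fit called 3 lower and 0 higher, and the low-share fit 11 and 4. Of 34 Fc receptor, complement and phagocytic receptor genes 6 fell and 0 rose (17.6% called), with a median of -0.36, and 3, 4, 4, 2, 2 and 3 lower calls in the same order. In the covariate fit 1 member was called lower, and after correction for GC content and transcript length 3 were. Fcgr3, an activating Fc receptor for IgG, had 1077, 935 and 704 CPM in WT and 497, 460 and 535 in double heterozygous libraries (log2 fold change -0.86, SE 0.17, adjusted p = 0.00779). Itgam, the CD11b chain of complement receptor 3, had 85.2, 94.4 and 67 CPM in WT and 41.3 to 43.6 in double heterozygous libraries (log2 fold change -0.94, adjusted p = 0.00879). The calls of Fcgr3 and Itgam ended in the covariate fit (adjusted p = 0.0817 and 0.073). Fcgr2b, the inhibitory Fc receptor, and Mfge8, a bridge to phosphatidylserine, were called in the full fit, but each kept its call only without WT replicate 3 (adjusted p up to 0.129 and 0.0823 in the other 5 fits).

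Pattern recognition receptors had 4 lower and 0 higher calls among 45 tested genes (8.89% called, beside 6.07% over all genes), with a median of -0.15. The covariate fit called 2 lower and 0 higher, and the low-share fit 14 and 1. Tlr7, the endosomal sensor of single-stranded RNA, had 303, 328 and 379 CPM in WT and 162, 147 and 148 in double heterozygous libraries, and fell by 1.15 on the log2 scale (SE 0.20, adjusted p = 0.0035). Clec5a, a lectin that signals through DAP12, had 52, 71.7 and 51.6 CPM in WT and 13.4 to 16.1 in double heterozygous libraries (log2 fold change -2.02, adjusted p = 0.000611). The other lower genes were the neighbouring lectins Clec4d and Clec4e. Clec4d had 1275 to 1522 CPM in WT and 772 to 814 in double heterozygous libraries, and its call ended without double heterozygous replicate 3 (adjusted p = 0.051), in the covariate fit (0.0942) and after correction for GC content and length (0.136). The call of Clec4e ended in each of the 6 fits (adjusted p from 0.0771 to 0.172). In 28 tested genes of MHC molecules, antigen processing and costimulation, edgeR called 0 in the full fit. The members with the smallest p were Mr1 (log2 fold change -0.93, adjusted p = 0.0561) and H2-T23 (0.79, adjusted p = 0.0712).

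Cytokine receptors had 2 lower and 0 higher calls among 41 tested genes, a share of 4.88% that lay below the 6.07% over all genes. Both lower calls held in each of the 6 fits without 1 library, and without WT replicate 3 the list also had 1 higher call. Il7r, the alpha chain of the interleukin 7 receptor, had 88.9, 128 and 86.6 CPM in WT and 21.2, 26.3 and 26.3 in double heterozygous libraries. It fell by 2.04 on the log2 scale (SE 0.19, adjusted p = 3.02e-05). Il13ra1, a chain of the receptor for interleukins 4 and 13, had 67.9, 71.5 and 88.6 CPM in WT and 30.3 to 40.3 in double heterozygous libraries (log2 fold change -1.11, adjusted p = 0.00344). Adhesion receptors had 7 lower and 0 higher calls among 45 tested genes (15.6%), 4 lower calls in the covariate fit, and 5, 5, 7, 6, 3 and 5 lower calls without WT replicate 1, 2 or 3 or double heterozygous replicate 1, 2 or 3. Cd81, a tetraspanin that organises membrane receptors, had 286, 248 and 200 CPM in WT and 95, 90.9 and 97.4 in double heterozygous libraries (log2 fold change -1.37, SE 0.14, adjusted p = 6.12e-05). Itga4, the alpha chain of the integrin VLA-4, had 39.3, 44.2 and 65 CPM in WT and 14.7 to 18.4 in double heterozygous libraries (log2 fold change -1.62, adjusted p = 0.00425). The 2 groups did not overlap for any of these genes. Kcnn4, a calcium-activated potassium channel, had 67.9, 58.6 and 68.9 CPM in WT and 20.7 to 23.4 in double heterozygous libraries (log2 fold change -1.54, adjusted p = 0.0022).

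The list of lysosomal genes had 9 lower and 0 higher calls among 69 tested (13%, beside 6.07% over all genes). It had 5, 5, 11, 5, 6 and 5 lower calls without WT replicate 1, 2 or 3 or double heterozygous replicate 1, 2 or 3. The median over the list was -0.14 and its sign depended on the fit: it turned to 0.02 in the covariate fit, with 3 lower and 0 higher calls, and to 0.09 in the low-share fit, with 10 and 3. Lamp2, a major glycoprotein of the lysosomal membrane, had 1839, 1999 and 1870 CPM in WT and 1109, 1036 and 879 in double heterozygous libraries (log2 fold change -0.92, SE 0.16, adjusted p = 0.00337). Ppt1, a thioesterase that removes fatty acids from proteins, had 356, 389 and 383 CPM in WT and 217 to 221 in double heterozygous libraries (log2 fold change -0.78, adjusted p = 0.00217). Arsb, a sulfatase, and Glb1, a beta-galactosidase, had log2 fold changes of -1.46 and -0.83 (adjusted p = 0.00545 and 0.00492), and both calls ended in the covariate fit (0.067 and 0.0537). Some lysosomal genes that were not on the list were called too. Tcirg1, a subunit of the proton pump of lysosomes, rose from 303, 305 and 324 CPM to 464, 503 and 526 (log2 fold change 0.68, SE 0.14, adjusted p = 0.00906). That call ended in the covariate fit (0.0714). After their values were seen, Tpcn2, a lysosomal channel, and Hyal1, a lysosomal hydrolase, were added as higher genes (log2 fold change 0.99 and 1.16, adjusted p = 0.0015 and 0.0348). Hpse, a heparanase, fell (-1.67, adjusted p = 0.00344). Tpcn2 and Hpse were called in all 6 fits without 1 library, and Hyal1 in 0 of them. Cybb, the catalytic subunit of the phagocyte NADPH oxidase, had 2683, 2889 and 2715 CPM in WT and 1355, 1362 and 1206 in double heterozygous libraries. It fell by 1.08 on the log2 scale (SE 0.13, adjusted p = 0.000296). Msr1, the class A scavenger receptor, had 677 to 851 CPM in WT and 410 to 431 in double heterozygous libraries (log2 fold change -0.84, adjusted p = 0.00178), a call that ended after correction for GC content and transcript length (adjusted p = 0.078).

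Chaperones of the endoplasmic reticulum had 7 lower and 0 higher calls among 42 tested genes (16.7%, beside 6.07% over all genes). Without WT replicate 1, 2 or 3 or double heterozygous replicate 1, 2 or 3 the lower calls numbered 6, 5, 7, 6, 5 and 3. The median of -0.15 turned to 0.02 in the covariate fit, with 2 lower calls, and was -0.02 in the low-share fit, with 8. Hsp90b1, the chaperone that folds Toll-like receptors and integrins, had 399, 444 and 419 CPM in WT and 230, 219 and 234 in double heterozygous libraries (log2 fold change -0.88, SE 0.17, adjusted p = 0.00567). Dnajb9, a cochaperone of BiP, had 81.7 to 86.7 CPM in WT and 27.2 to 48.9 in double heterozygous libraries (log2 fold change -1.04, adjusted p = 0.00818), a call that ended in the covariate fit (0.067). Ero1lb, an oxidase for disulfide formation, had a log2 fold change of -1.14 (adjusted p = 0.00217). Serp1, which stabilises new membrane proteins in the endoplasmic reticulum and was named by its change in CPM, had 896, 907 and 1068 CPM in WT and 505, 464 and 363 in double heterozygous libraries (log2 fold change -1.11, adjusted p = 0.00133). No WT library had a value as low as any double heterozygous library for these 4 genes. Of 79 tested cytosolic ribosomal protein genes, 72 had a negative log2 fold change, and the median was -0.20. Among the 79, 12 were called lower and 0 higher (15.2%). Those calls numbered 4, 5, 11, 6, 1 and 6 in the 6 fits in the same order, and 2 in the covariate fit. The median over the 79 genes stayed at -0.20 in the covariate fit and was -0.18 in the low-share fit. Rpl23, the member called in all 6, had 109, 118 and 108 CPM in WT and 80.9 to 83.1 in double heterozygous libraries (log2 fold change -0.45, adjusted p = 0.0109), a call that ended in the low-share fit (0.0644).

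**Figure D3:**
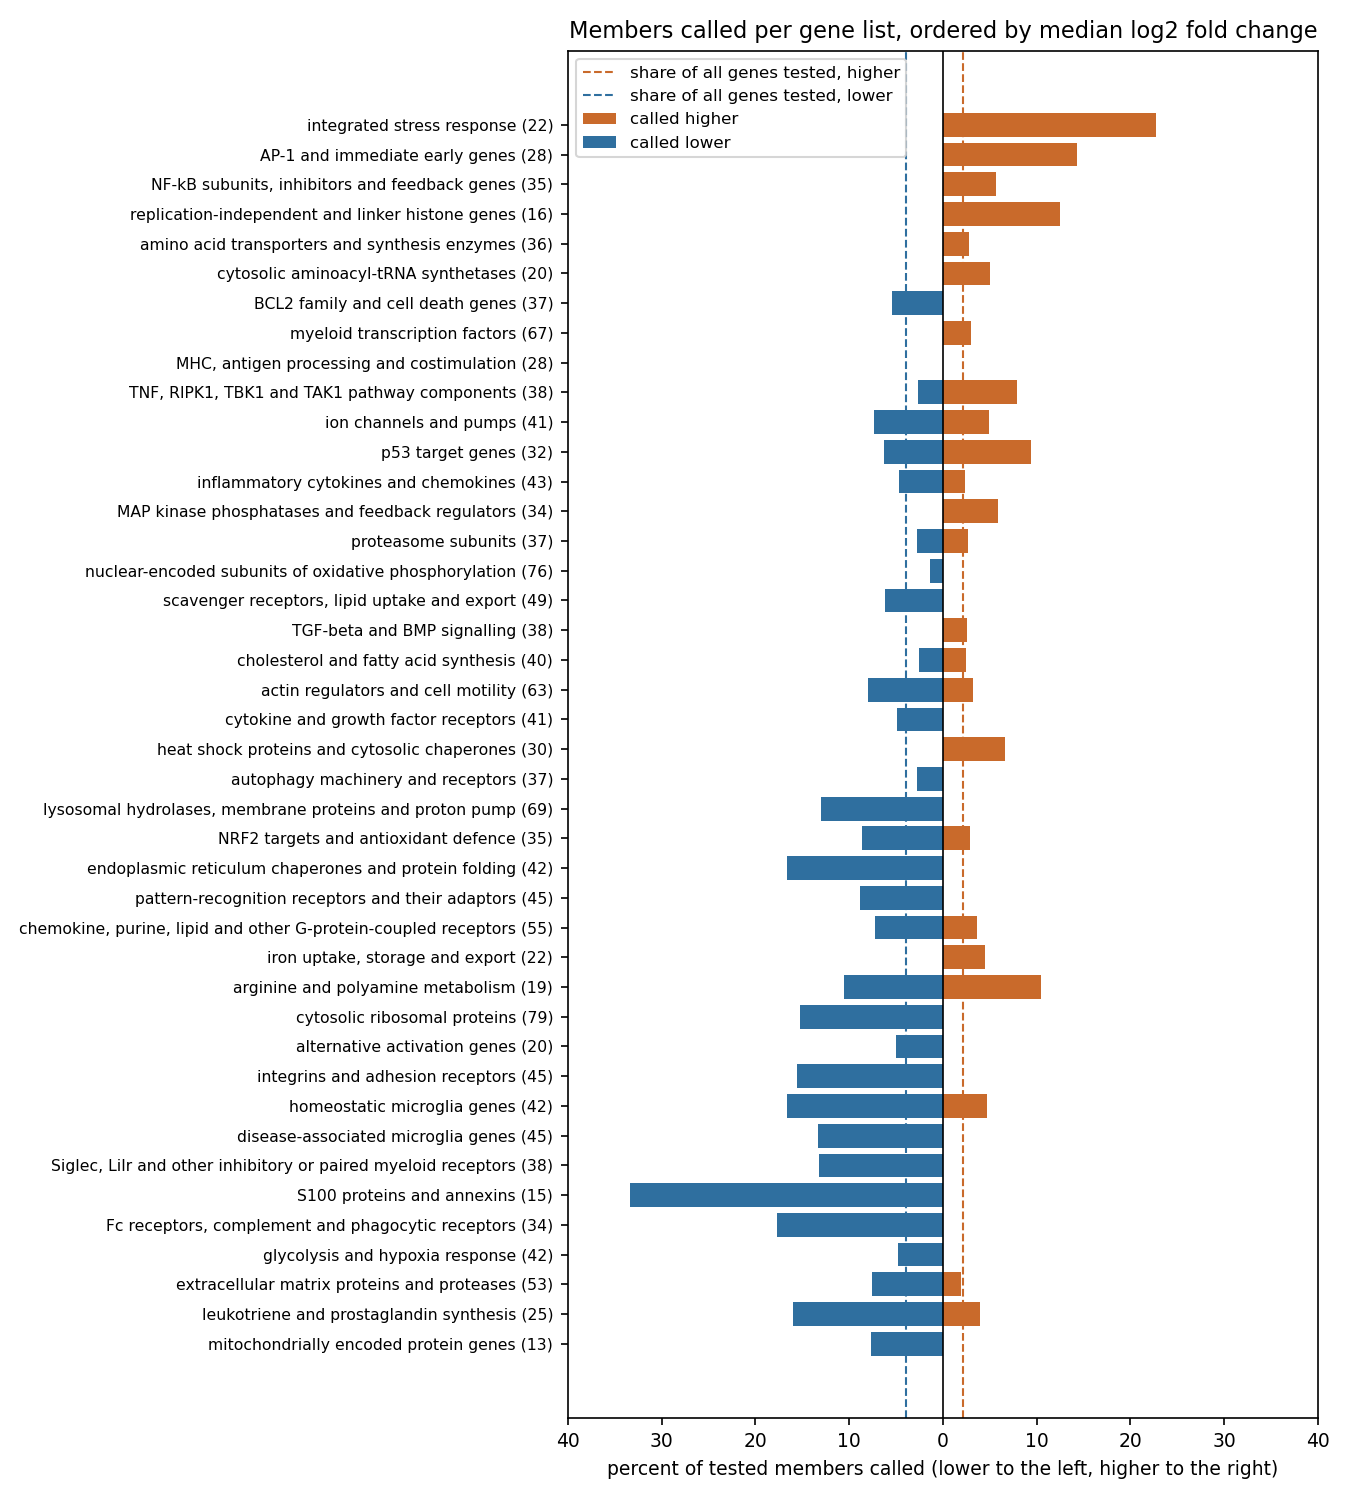
Percent of the tested members of each of 42 gene lists called lower (blue, to the left) and higher (orange, to the right) in double heterozygous cells, with the number tested in parentheses, ordered from the highest (top) to the lowest (bottom) median log2 fold change. Dashed lines give the share over all genes tested, 3.9% lower and 2.16% higher; the integrated stress response is at the top with 5 of 22 called higher, and S100 proteins and annexins have the longest lower bar with 5 of 15.

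Genes of the integrated stress response were among those called higher. In this pathway, phosphorylation of the initiation factor eIF2 favours translation of the transcription factor ATF4, which with partners such as CHOP (gene symbol Ddit3) activates genes through sites that join a C/EBP half-site to an ATF half-site. Of 22 tested genes 5 rose and 0 fell (Ddit3, Gdf15, Atf4, Cars and Atf3), 22.7% called beside 6.07% over all genes. The median log2 fold change was 0.87 beside 0.0038 over all genes. The covariate fit called 1 higher with a median of 0.74, the low-share fit 8, and the fit after correction for GC content and length 2. Ddit3 had 8.93, 13.3 and 12.1 CPM in WT and 38.9, 40.9 and 41.7 in double heterozygous libraries. The double heterozygous values were all above the highest WT value, and Ddit3 rose by a log2 fold change of 1.82 (SE 0.28, adjusted p = 0.00171). Gdf15, a secreted stress cytokine, had 4.05, 5.6 and 3.48 CPM in WT and 24.8, 27.4 and 31.6 in double heterozygous libraries (log2 fold change 2.67, SE 0.71, adjusted p = 0.0342). Atf4 had 129, 113 and 71.6 CPM in WT and 214, 202 and 213 in double heterozygous libraries (log2 fold change 1.00, SE 0.27, adjusted p = 0.0367). Ddit3 was the member called in each of the 6 fits without 1 library. The calls of Gdf15, Atf4, Cars and Atf3 ended in all 6 (adjusted p from 0.0709 to 0.111 for Gdf15, from 0.0509 to 0.127 for Atf4, from 0.0521 to 0.105 for Cars, up to 0.127 for Atf3), although the groups of none of them overlapped.

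A promoter of Gdf15 and that of Atf3 hold the 7 bases TGATGCA, the core of such C/EBP-ATF sites, and are shown because they are the promoters of called members of this list that do. RefSeq gives a second promoter of Gdf15 (chr8:70632046-70632345), which has no such run. Ddit3 and Atf4 have no such run in the same window, and Cars was not matched to a promoter. Sequences are the 250 bases before the start in RefSeq on GRCm38.p6, 5′ to 3′ on the strand of the gene, with the core in capitals; in both it reads as its reverse complement TGCATCA. Gdf15 is at chr8:70632457-70632706 (minus strand), with the core beginning 238 bases before the start, and Atf3 at chr1:191183334-191183583 (minus strand), with the core beginning 109 bases before it.
Gdf15: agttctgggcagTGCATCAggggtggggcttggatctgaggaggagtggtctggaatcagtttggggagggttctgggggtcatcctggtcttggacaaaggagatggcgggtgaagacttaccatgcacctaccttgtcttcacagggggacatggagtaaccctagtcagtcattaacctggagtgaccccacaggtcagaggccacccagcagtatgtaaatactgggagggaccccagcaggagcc
Atf3: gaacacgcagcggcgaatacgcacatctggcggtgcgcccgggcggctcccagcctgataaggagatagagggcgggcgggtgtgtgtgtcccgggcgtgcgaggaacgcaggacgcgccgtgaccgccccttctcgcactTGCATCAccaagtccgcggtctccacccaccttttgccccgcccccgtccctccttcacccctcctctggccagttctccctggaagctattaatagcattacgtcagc
Over the window from 250 bases before to 50 after the start, TGATGCA on either strand was found in at least 1 listed promoter of 2.44% of the 9801 tested genes with a promoter, in 3.7% of 243 called higher and in 1.94% of 412 called lower. The AP-1 motif TGANTCA was found in 6.22%, 8.64% and 7.77%. A match is a run of letters and not a shown binding site.

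Some immediate early and feedback genes were called higher. Dusp5, a nuclear phosphatase of ERK, had 1.52, 4.24 and 1.51 CPM in WT and 13.3, 20.7 and 15.7 in double heterozygous libraries, and rose by a log2 fold change of 2.77 (SE 0.55, adjusted p = 0.00755), a call that ended in the covariate fit (0.0737). Of 28 AP-1 and immediate early genes 4 rose (Rhob, Fos, Zfp36 and Jun) and 0 fell (14.3% called), with a median of 0.41. Fos had 124, 124 and 202 CPM in WT and 290, 287 and 271 in double heterozygous libraries (log2 fold change 0.91, SE 0.23, adjusted p = 0.0276). None of these 4 calls was stable to leaving out 1 library: the list had 0, 1, 2, 0, 0 and 0 higher calls without WT replicate 1, 2 or 3 or double heterozygous replicate 1, 2 or 3, and 0 in the covariate fit. Of 35 NF-kB subunits, inhibitors and feedback genes 2 rose, Gadd45b and Ehd1, a share of 5.71% beside 6.07% over all genes, with a median of 0.27. In the covariate fit 0 were called and the median was 0.13. Gadd45b, a stress-induced regulator of p38 and JNK signalling, had 5.06, 5.48 and 7.02 CPM in WT and 21.3, 29.9 and 21.3 in double heterozygous libraries (log2 fold change 2.04, adjusted p = 0.0116). Leaving out WT replicate 1 or 2 ended the call (adjusted p = 0.0523 and 0.0546). Rcan1, an inhibitor of calcineurin, had 43.5, 41 and 33.8 CPM in WT and 98.6, 87.5 and 95.9 in double heterozygous libraries (log2 fold change 1.25, SE 0.21, adjusted p = 0.00299).

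The p53 target list had 3 higher and 2 lower calls among 32 tested genes (15.6% called, beside 6.07% over all genes) and a median of 0.08. The covariate fit called 1 higher and 1 lower with a median of -0.03, and the low-share fit 4 and 2 with a median of 0.26. Plk2, a stress-induced kinase, had 254, 294 and 290 CPM in WT and 663, 649 and 630 in double heterozygous libraries, and rose by a log2 fold change of 1.21 (SE 0.22, adjusted p = 0.00465). Trp53inp1, another target of p53, had 48.9, 43.9 and 66.7 CPM in WT and 16.7 to 24.1 in double heterozygous libraries, and fell by 1.39 on the log2 scale (SE 0.22, adjusted p = 0.00194). These 2 members of 1 list moved in opposite directions with no overlap between groups. Of 38 tested components of the pathway of TNF, RIPK1, TBK1 and TAK1, 3 rose (Ripk1, Chuk and Rnf31) and 1, the targeted Tbk1, fell. That was 10.5% called, beside 6.07% over all genes, with a median of 0.10. The calls of Ripk1, Chuk and Rnf31 ended in the covariate fit (adjusted p = 0.274, 0.229 and 0.224) and in the low-share fit (0.158, 0.206 and 0.213). Chuk, the IKK alpha kinase, had 15.7, 22.5 and 30.4 CPM in WT and 56.7, 60 and 46.9 in double heterozygous libraries (log2 fold change 1.25, adjusted p = 0.0352), a call that held only without WT replicate 3 (adjusted p = 0.0323). Rnf31, the catalytic subunit of the linear ubiquitin ligase, had 24.6 to 26.1 CPM in WT and 32.1 to 42.2 in double heterozygous libraries (log2 fold change 0.61, adjusted p = 0.0412), a call that held only without double heterozygous replicate 3 (adjusted p = 0.048).

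The linker histone gene Hist1h1c and the methyltransferase subunit gene Ash2l were among the leading higher genes. Hist1h1c, which encodes the linker histone H1.2, had 182, 173 and 157 CPM in WT and 442, 427 and 435 in double heterozygous libraries. It rose by a log2 fold change of 1.35 (SE 0.14, adjusted p = 6.12e-05). H1f0, another linker histone, had 51.8 to 69.1 CPM in WT and 106 to 130 in double heterozygous libraries (log2 fold change 0.96, adjusted p = 0.0104). Leaving out WT replicate 2 or double heterozygous replicate 3 ended the call (adjusted p = 0.057 and 0.0544), as did the covariate fit (0.0904). Of 16 tested linker and replication-independent histone genes these 2 rose and 0 fell (12.5%, beside 6.07% over all genes), with a median of 0.24. Ash2l, a subunit of histone H3 lysine methyltransferase complexes, had 9.12, 11 and 9.17 CPM in WT and 50.7, 46.7 and 57.2 in double heterozygous libraries (log2 fold change 2.40, SE 0.45, adjusted p = 0.00509). Ifrd1, a transcriptional coregulator, had 31.4, 36.9 and 37.4 CPM in WT and 138.02, 120 and 116 in double heterozygous libraries (log2 fold change 1.83, SE 0.26, adjusted p = 0.00095). Setd6, a lysine methyltransferase, and Pspc1, a paraspeckle protein, rose by log2 fold changes of 2.44 and 1.39 (adjusted p = 0.00624 and 0.00824). Psme3, an activator of the nuclear proteasome, rose by 1.72 (adjusted p = 0.00698), Gga2, an adaptor of the trans-Golgi network, by 1.88 (0.00902), and Efhd2, a calcium-binding protein of the cytoskeleton, by 1.30 (0.00702). With the mitochondrial share of counts as a covariate, Ash2l, Setd6, Pspc1, Psme3, Gga2 and Efhd2 were no longer called (adjusted p = 0.0585, 0.062, 0.0742, 0.0712, 0.0931 and 0.066), and Hist1h1c and Ifrd1 were (0.000521 and 0.00778).

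**Figure D4:**
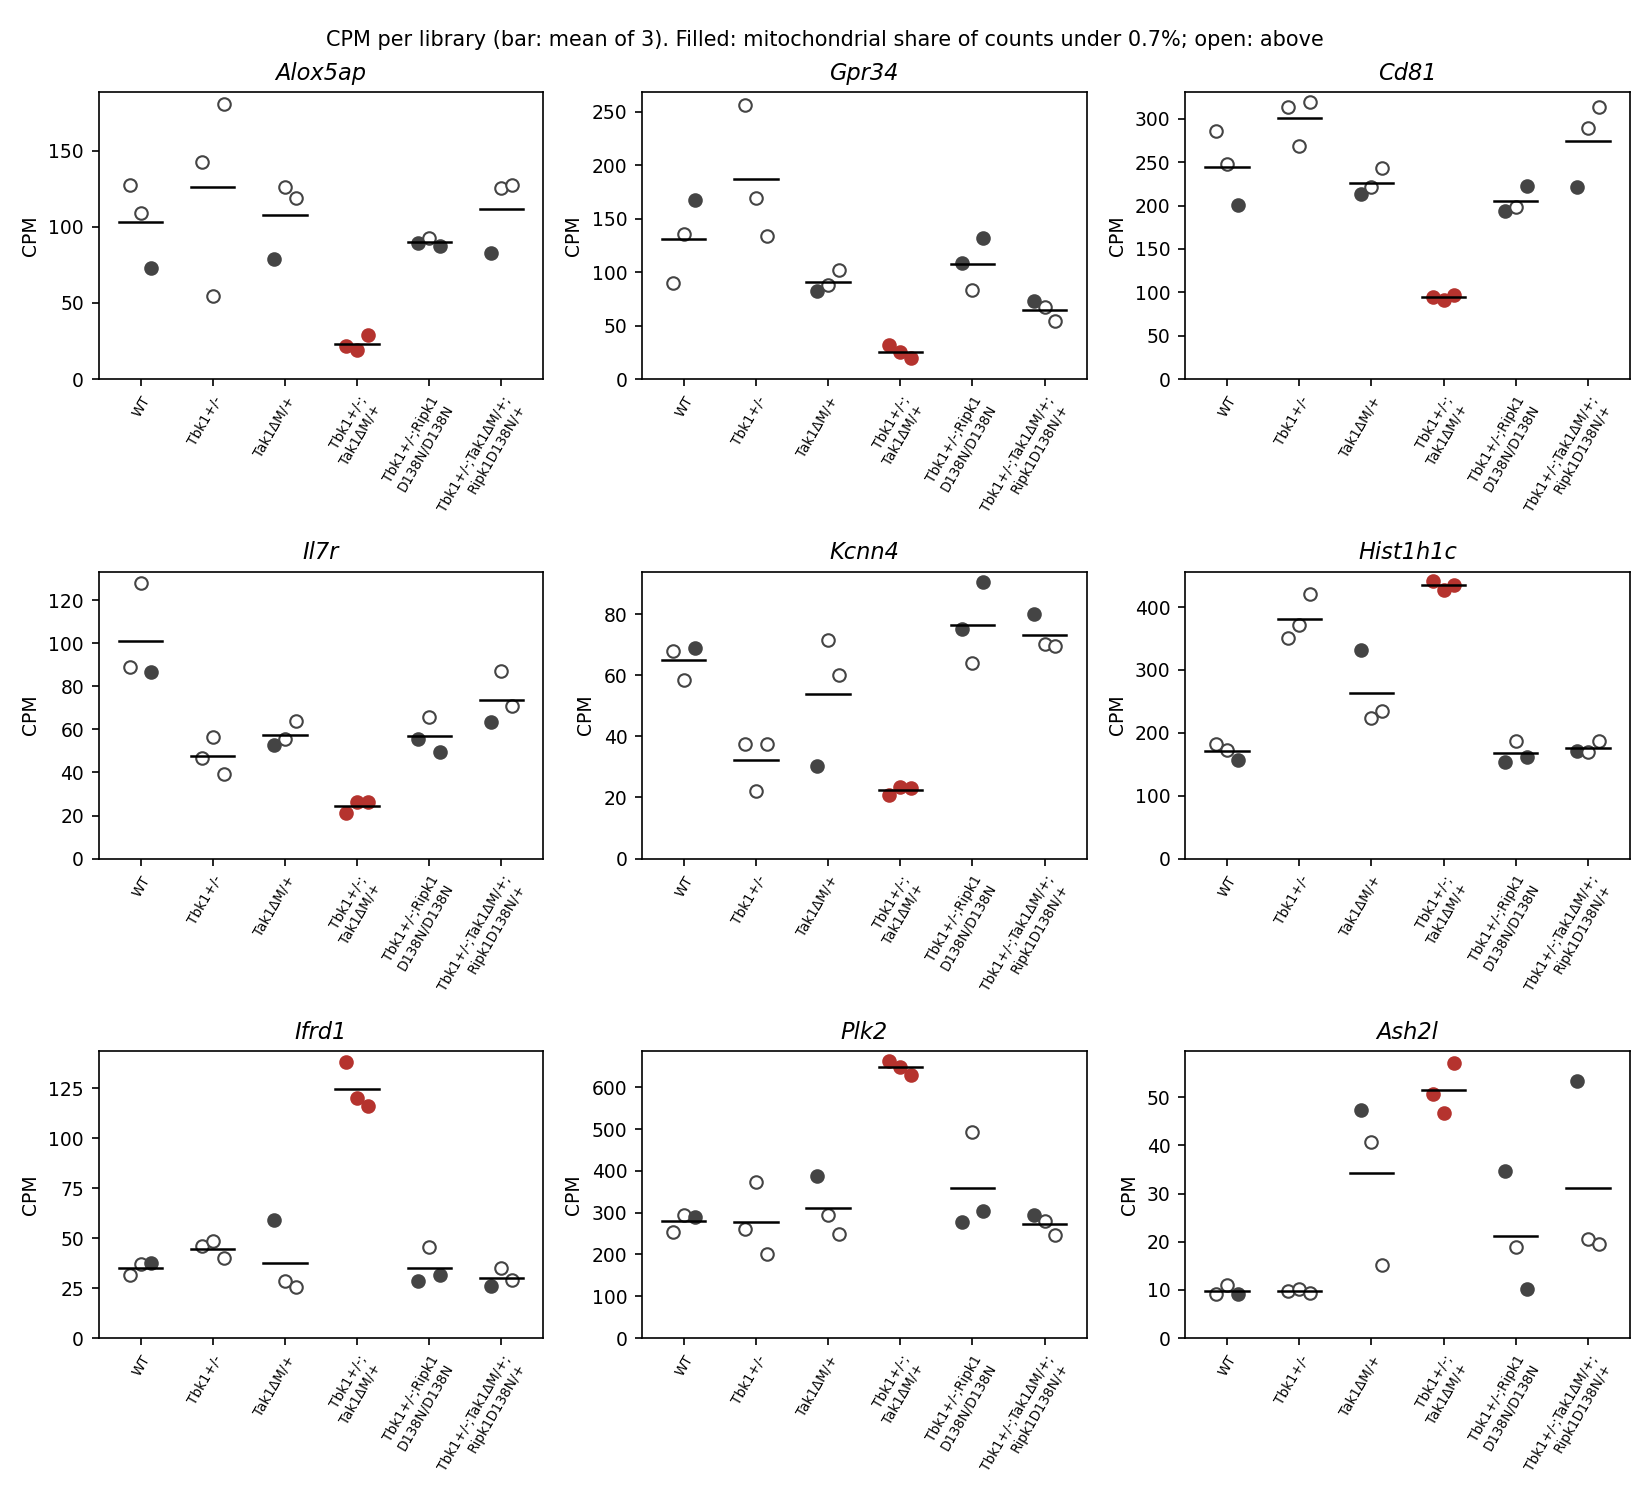
CPM of 9 genes in each library of the 6 genotypes (horizontal axis), with a bar at the mean of 3 libraries; double heterozygous libraries are red, and filled circles mark libraries with a mitochondrial share of counts under 0.7%. Cd81 and Plk2 have all 3 double heterozygous values outside those of the other 15 libraries, whereas Ash2l is high in other filled libraries too.

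The levels in the other 4 genotypes placed the double heterozygous values in the whole series. All 3 double heterozygous libraries lay above or below all 15 other libraries for 14 of the 14 leading lower genes and for 10 of the 14 leading higher genes, beside 5.58% of all genes tested. Since these genes were chosen for their distance from WT, the shares describe levels and test nothing. Cd81 had 193 to 319 CPM over the 4 other mutant genotypes, against 90.9 to 97.4 in the double heterozygous libraries. Ifrd1 had 44.7, 37.7, 35.2 and 30 CPM on average in Tbk1+/-, Tak1ΔM/+, Tbk1+/-;Ripk1D138N/D138N and Tbk1+/-;Tak1ΔM/+;Ripk1D138N/+ libraries, against 125 ± 11.6 (SD, n = 3) in the double heterozygous libraries. Lyz2 averaged 29309 CPM in Tbk1+/-, between the WT and the double heterozygous level, as it did in Tak1ΔM/+. Hist1h1c averaged 381 CPM in Tbk1+/- and 263 in Tak1ΔM/+, and 168 and 176 in the genotypes with a Ripk1 D138N allele, near the WT mean of 171. Ash2l varied widely within Tak1ΔM/+, from 15.1 to 47.3 CPM. Tbk1 itself had 107 to 123 CPM in the libraries labelled Tbk1+/-;Tak1ΔM/+;Ripk1D138N/+ and 54.9 to 131 in those labelled Tbk1+/-;Ripk1D138N/D138N, levels that go against some of those labels, so these 2 groups carry that limit.

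Some other lists are given with their shares. Nuclear-encoded subunits of oxidative phosphorylation had 1 lower call among 76 tested (1.32%, beside 6.07% over all genes) and a median of 0.00, and autophagy genes 1 lower call among 37 (2.7%). Mitochondrially encoded protein genes had a median of -1.42 and 13 of 13 negative log2 fold changes. Of these 13, edgeR called only mt-Nd3 (7.69%), which had 5.28 to 7.9 CPM in WT and 0, 0 and 0.398 in double heterozygous libraries. With the mitochondrial share as a covariate that median was -0.17. That share is made of the counts of these same genes, so the fit takes out their difference by construction. The value therefore tests nothing. Inflammatory cytokines and chemokines had 1 higher call (Tgfb1) and 2 lower calls (Tnfsf8 and Il16) among 43 (6.98%, near the 6.07% over all genes). Tnfsf8 and Itga8 had 0 counts in all 3 double heterozygous libraries and 6 to 44 and 15 to 56 counts in WT libraries. Both calls ended without double heterozygous replicate 1 (adjusted p = 0.0513 and 0.0541) and replicate 3 (0.061 and 0.0656). Catsperg1 and Rin1 had 0 counts in WT and 11 to 20 and 8 to 23 counts in double heterozygous libraries, and their calls ended in each of the 6 fits (adjusted p up to 0.134 and 0.117). A count of 0 puts a gene under a floor of 3 counts in that library, which covers counting error only.

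Higher and lower genes differed in base composition. The median GC content of the longest transcript was 49.2% over all genes tested, 52.1% in the genes called higher and 43.8% in those called lower. Among genes called in all 6 fits without 1 library it was 50.8% and 43.5%. Median transcript lengths were 3205, 3351 and 3183 bases. After removing GC content and length per library, 189 of the 291 higher and 358 of the 525 lower genes were called. Of the genes called in all 6 fits without 1 library, 53 of 54 higher and 140 of 146 lower ones were called after that correction. With mitochondrial share in the model, 39 and 115 of them were called. Of the 62 genes named by the rule given below that were called in all 6 fits, 42 were called with that covariate. Among the 20 that were not were 10 of the 14 leading higher genes and 2 of the 14 leading lower genes. The 2 lower genes were Alox5 and Npy (adjusted p = 0.0725 and 0.0793). The 10 higher genes were Ash2l, Efhd2, Psme3, Pspc1, Rufy1, Setd6, Dusp5, Gga2, Trir and Vat1 (adjusted p = 0.0737, 0.0931, 0.0727 and 0.0815 for the last 4).

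**Figure D5:**
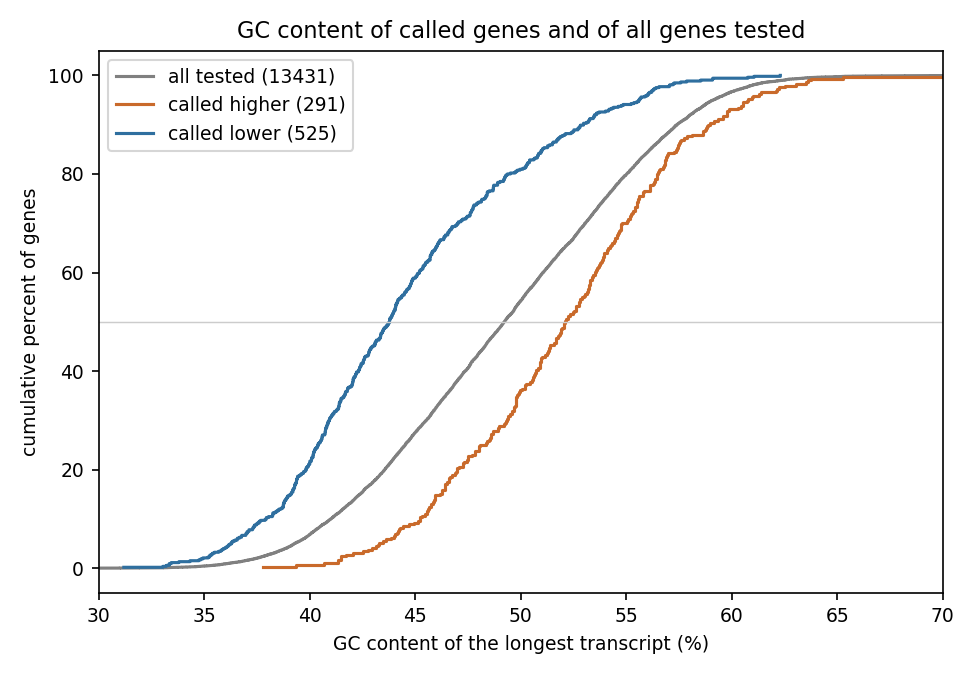
Cumulative percent of genes (vertical axis) against the GC content of the longest transcript in percent (horizontal axis) for all genes tested with a value, genes called higher and genes called lower. The curve of the lower genes lies to the left (median 43.8%) and that of the higher genes to the right (52.1%) of all genes (49.2%).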

How the data were processed

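The deposited table holds raw counts of reads per gene, which the authors made with STAR and featureCounts on mm10, per the submitters' processing notes; the labels' protocol names RSEM instead. The values were whole numbers. Versions, annotation and strand setting are not given in the sources used here. Smart-seq2 libraries were made from 1 ng of RNA with 12 PCR cycles and read in pairs of 50 bases, per the labels' protocols. This chemistry does not mark strand, so overlapping genes on opposite strands cannot be told apart, and counts without molecular identifiers are not independent molecules.

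Symbols and coordinates came from GENCODE M21 (GRCm38). Of 50686 identifiers, 50462 had a symbol. Genes were kept by filterByExpr (minimum count 10), scaled by TMM and tested in 1 fit over all 18 libraries with the quasi-likelihood test of edgeR 4.0.16 (R 4.3.3), with Benjamini-Hochberg adjustment and a threshold of 0.05. SE is that of the log2 fold change. The scripts were tested on simulated data. The members, gene lists and naming rule were chosen with earlier results of these data known. Named genes were Tbk1, Map3k7, Ripk1 and Lyz2, 14 higher and 14 lower genes by fold and 6 in each direction by CPM (protein-coding, mean of at least 5 CPM, no overlap, called in all 6 fits without 1 library, on neither set-aside list), up to 4 called members of each of 42 lists, genes with 0 counts in 1 group and called genes within 5 Mb of 3 loci. Pla2g4a, Atf3, Neat1, Cd4, Olig2, Pdgfra, Tpcn2, Hyal1 and Hpse were named outside this rule after their values were seen. There were 19 alternatives, counting 2 other window sizes around the loci, with DESeq2 1.42.0 and limma-voom (limma 3.58.1) among them. Another 2 were added after the data were seen. These were the GC and length correction (splines with 5 degrees of freedom) and the fit on 8 libraries with a mitochondrial share under 0.7%. In that fit WT, Tak1ΔM/+ and Tbk1+/-;Tak1ΔM/+;Ripk1D138N/+ have 1 library each and are assumed to vary like the other groups. Its spread comes only from the double heterozygous and Tbk1+/-;Ripk1D138N/D138N libraries. The lone WT library, replicate 3, had no Y-linked counts.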

Additional observations from a re-analysis of the deposited data

How the results depend on the processing

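The calls were 291 higher and 525 lower. DESeq2 gave 565 and 859, no filter on low counts 528 and 876, a fit on the 6 compared libraries alone 574 higher, the Y-linked level as a covariate 479 higher, a 2-fold minimum beside the adjusted p 159 and 261, and the mitochondrial share as a covariate 70 and 146. Leaving out 1 library gave between 85 (without double heterozygous replicate 3) and 205 (without WT replicate 3) higher genes and between 199 and 423 lower genes. The other settings stayed within 1.5 times. Limma-voom gave 327 and 410, DESeq2 size factors 288 and 544, and upper-quartile scaling 261 and 643. A mean of at least 5 CPM gave 394 and 607, and the GC and length correction 227 and 437. Similar totals can hold other genes, and the low-share fit, with 1 WT library, called in part other genes than the full fit. The genes called higher in the full fit had a median log2 fold change of 0.99 in the low-share fit, against 1.06 in the full fit. For the genes called lower in the full fit it was -1.01, against -0.99. Both fits use WT replicate 3 and all double heterozygous libraries, so the likeness of these medians is in part built in. Upper-quartile scaling moved the median of all genes to -0.03. The cause of these changes was not tested. With the replicate number as a block the calls were 312 and 494; same-numbered WT and double heterozygous libraries had correlations of -0.03, -0.03 and -0.04 in their deviations from the group means, so the numbers do not pair them. The log2 fold change of Map3k7, not called, ranged from -0.60 to 0.077 with 1 library left out, turning positive without WT replicate 3 and, at 0.014, without double heterozygous replicate 3, and that of Psmc6 turned to 0.045 after the GC and length correction.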

Other observations

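Groups of translation and splicing genes were picked out after the values were seen and are given as values only. Of 65 tested initiation and elongation factors (symbols beginning with Eif or Eef), 11 were lower and 3 higher, beside 3.9% lower and 2.16% higher over all genes tested. The median log2 fold change of the 65 was -0.03, near the 0.0038 over all genes tested. The group was not among the 42 lists of the report. Eif3e, a subunit of the initiation factor eIF3, had 148, 167 and 216 CPM in WT and 94.1, 93.4 and 94.3 in double heterozygous libraries (log2 fold change -0.91, SE 0.17, adjusted p = 0.00445, edgeR). Npm1, a nucleolar chaperone of ribosome assembly, had 305, 335 and 369 CPM in WT and 142, 143 and 137.6 in double heterozygous libraries, and fell by 1.25 on the log2 scale (SE 0.12). Both were called in all 6 fits without 1 library. Without WT replicate 1, 2 or 3 or double heterozygous replicate 1, 2 or 3, the factors called in either direction numbered 7, 5, 9, 6, 7 and 6.

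Of 68 tested splicing factors and ribonucleoprotein genes, 7 were higher and 1 lower, beside 2.16% and 3.9% over all genes and likewise in a group chosen after its values were seen, with a median log2 fold change of 0.11. Hnrnpab, an RNA-binding protein, had 18, 15.4 and 19.8 CPM in WT and 41.5, 40.9 and 42.1 in double heterozygous libraries (log2 fold change 1.23, adjusted p = 0.018, edgeR). The calls of this group numbered 1, 1, 5, 4, 3 and 1 in the same 6 fits, and that of Hnrnpab held in 2 of them (adjusted p up to 0.084).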
